A study of Mus musculus with 12 samples.

Results

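The interleukin-1 (IL-1) system and the inflammasome were followed in neutrophils through 10 genes chosen by symbol from what they encode. They are the ligands Il1a, Il1b and Il18, the receptor antagonist Il1rn, the receptors Il1r1, Il1rap and Il1r2, and the inflammasome genes Nlrp3, Pycard and Casp1, which makes 10 of the 28987 genes in the deposited table of 12 RNA libraries. FVB mice, either wild type (WT) or carrying MRP8-Bcl2, a human BCL2 transgene driven by regulatory regions of the human MRP8 gene, received 2 mL thioglycollate in the peritoneum, and per the labels cells were taken 6 h later. The 4 groups were marrow (BM) and peritoneal (PT) cells of WT mice and marrow and peritoneal cells of MRP8-Bcl2 mice (Bcl2), each with 3 libraries, and all mice of the 4 groups had been given thioglycollate, so no resting animal is in the comparison. The labels call the source cells macrophages and the design text calls them neutrophils, the study's methods give other hours of collection, and the comparison asks which of these genes differ between neutrophils still in the marrow and neutrophils that had entered the inflamed cavity, with and without the block on apoptosis.

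IL-1 is made as 2 agonists. IL-1β, the product of Il1b, is produced as an inactive precursor that caspase-1 cuts after the sensor NLRP3 and the adaptor ASC (Pycard) have assembled into an inflammasome, and the same enzyme matures IL-18. Both IL-1 agonists signal through IL1R1 paired with the accessory chain IL1RAP, whereas the antagonist encoded by Il1rn occupies IL1R1 without signalling and IL1R2 is a decoy that binds ligand and has no signalling domain. Neutrophils are known for high IL1R2 and IL-1 receptor antagonist, and transcripts of Il1b and Nlrp3 are known targets of NF-κB.

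Values are given as TPM, a share of the transcripts of a library corrected for transcript length, and depth is unknown because TPM keeps no read totals. Libraries carry the numbers 1 to 12 of the deposited columns, which are not tied to the replicate numbers of the sample titles. Between 9735 and 14305 genes were above 0 in a library. The 7 neutrophil markers summed to 76676 to 348610 TPM in BM and to 15059 to 69964 TPM in PT. Of these, S100a8 and S100a9 were at 4495 TPM or more in all 12 libraries but lower in PT without overlap, and Ly6g was at 51.5 to 1266 TPM in BM and 0 to 126 TPM in PT, at 0 in library 12. Retnlg was at 343 to 20198 TPM in BM and 193 to 1867 TPM in PT. Csf3r was higher in PT without overlap, at 132 to 1038 TPM in BM and 1839 to 4569 TPM in PT. Cxcr2 was at 212 to 1864 TPM in BM and 1290 to 3914 TPM in PT, and Itgam at 290 to 792 and 558 to 2482 TPM. In contrast, the macrophage marker Adgre1, which encodes F4/80, was at 18.5 TPM or less. Peritoneal libraries 7, 9 and 12 each stood apart from their groups in some respect. Library 9, labelled PT Bcl2, had 0.695 TPM of mouse Bcl2, against 58.6 to 333 TPM in the 5 other libraries labelled Bcl2 and 0.219 to 2.37 TPM in WT, so members' changes in Bcl2, and the list calls that this library decides, are also given without it. Library 12, labelled PT WT, had a summed level of 678 TPM for 6 mast cell markers, against 4.91 to 90.5 TPM in the other 11. Library 7, labelled PT Bcl2, had the fewest genes above 0, at 9735. The 50 genes of highest mean TPM held 45.1% of its TPM, against 73.5% and 74.0% in libraries 8 and 9. Its sum of 4 T cell markers was 174 TPM, against 46.2 and 5.64 TPM in libraries 8 and 9. The summed level of 12 macrophage markers was 15.3 to 127 TPM in BM and 34.8 to 150 TPM in PT, with Gata6 at 0 in BM and PT Bcl2. Other macrophage markers were higher: Csf1r reached 42.1 TPM in BM and 96.7 TPM in PT, and Marco 4.02 and 27.3 TPM. Of the 10 macrophage markers tested as below, 9 had a change from BM to PT above 0 in the mean of both genotypes. In that mean 2 were called higher and 0 lower, and 0 were called in WT or in Bcl2 alone. The sum of 4 B cell markers was 8.70 to 75.9 TPM in BM and 34.4 to 207 TPM in PT. The sum of 4 monocyte markers was 429 to 2004 TPM in BM and 56.1 to 114 TPM in PT, and that of 4 erythroid markers 25.4 to 964 TPM in BM and 0 to 9.26 TPM in PT. The sum of 8 genes of immature neutrophils was 13141 to 40383 TPM in BM and 135 to 267 TPM in PT. In bulk RNA, fewer cells of a type and less RNA per cell cannot be told apart, and the part of these cells and of cell maturity in the results below was not tested.

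Promoters of the members that were called, and of Il1a, which was near 0, show what sequence lies before these genes. All 10 members matched a RefSeq promoter (GRCm38.p6), in 14 records with different start sites, and 120 bases before the start site are printed 5′ to 3′ on the strand of the gene, with TATAAA and the AP-1 motif TGANTCA in capitals.
Il1b, chr2:129371140-129371259, minus strand: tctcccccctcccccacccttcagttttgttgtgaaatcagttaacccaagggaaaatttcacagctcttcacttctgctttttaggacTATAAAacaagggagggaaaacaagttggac
Il1a, chr2:129309973-129310092, minus strand: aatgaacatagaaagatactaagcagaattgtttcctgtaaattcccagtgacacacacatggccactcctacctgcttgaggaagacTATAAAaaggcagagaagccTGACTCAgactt
Il1rn, chr2:24336740-24336859, plus strand: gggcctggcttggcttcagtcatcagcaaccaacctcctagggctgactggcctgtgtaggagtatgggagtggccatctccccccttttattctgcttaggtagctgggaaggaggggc
Nlrp3, chr11:59541449-59541568, plus strand: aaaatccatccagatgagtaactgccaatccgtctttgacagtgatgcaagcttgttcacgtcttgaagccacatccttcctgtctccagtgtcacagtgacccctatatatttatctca
Il1rap, chr16:26581585-26581704, plus strand: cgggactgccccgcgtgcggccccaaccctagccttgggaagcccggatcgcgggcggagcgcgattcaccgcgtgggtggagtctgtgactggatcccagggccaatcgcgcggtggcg

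Il1b and Il1a carry TATAAA at nearly the same place, 31 to 26 bases before the start for Il1b and 32 to 27 bases for Il1a, and Il1a alone of the 5 windows has TGANTCA, 12 to 6 bases before its start. Over the 250 bases searched on both strands, TATAAA occurred in 12.4% of 32851 promoters, TGANTCA in 6.75%, the κB motif in 3.9% and the C/EBP motif TTNNNCAA in 33.3%. Further out, Il1rn held TGANTCA 141 to 135 bases before its first start site and Nlrp3 held a κB match 186 to 177 bases before its first start site, on the opposite strand. Il1rap held no match to any of the 4 motifs. Il1rn has 3 RefSeq start sites, which give intracellular and secreted forms of the antagonist, and values per gene do not separate them.

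Of the 10 members, Il1b, Il1rn, Il1rap and Nlrp3 rose from marrow to peritoneum in both genotypes. They encode an agonist, its antagonist, the shared signalling chain and the inflammasome sensor. In each of them the lowest of the 6 PT libraries lay above the highest of the 6 BM libraries, which held for 2.58% of the 13456 genes tested. Il1r2 was higher and Pycard lower in PT on average in both genotypes. Both overlapped between BM and PT libraries and did not pass the test. Casp1, Il1r1, Il1a and Il18 were not called in any comparison. With limma on log2(TPM + 1), where a call needed a change of at least 2-fold and a Benjamini-Hochberg adjusted p under 0.05, 4 of 10 members were higher in PT in WT, where 1.59% of all genes were. None was lower in WT, where 1.22% were, nor at an unadjusted p under 0.05. Here and below, counts and shares at an unadjusted p under 0.05 also needed a change of at least 2-fold. The difference of the change between genotypes had no such minimum. In Bcl2, 4 of 10 were higher, against 2.31% of all genes, and 0 were lower, against 19.1%, with 1 member (Pycard) lower at an unadjusted p under 0.05, where 32.7% of all genes were. In the mean of both genotypes the same 4 were higher, against 5.13% of all genes, and 0 were lower, against 14.1%, with 1 member (Pycard) lower at an unadjusted p under 0.05, against 24.4%. The median log2 fold change of the 10 members was 1.46 in WT and 1.82 in Bcl2, beside 0.22 and -1.02 over all genes tested. All p-values measure the spread between these libraries. The study's methods took marrow and peritoneal cells from each mouse, so BM and PT libraries share animals, and since the columns do not say which, the tests treat them as independent.

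**Figure D1:**
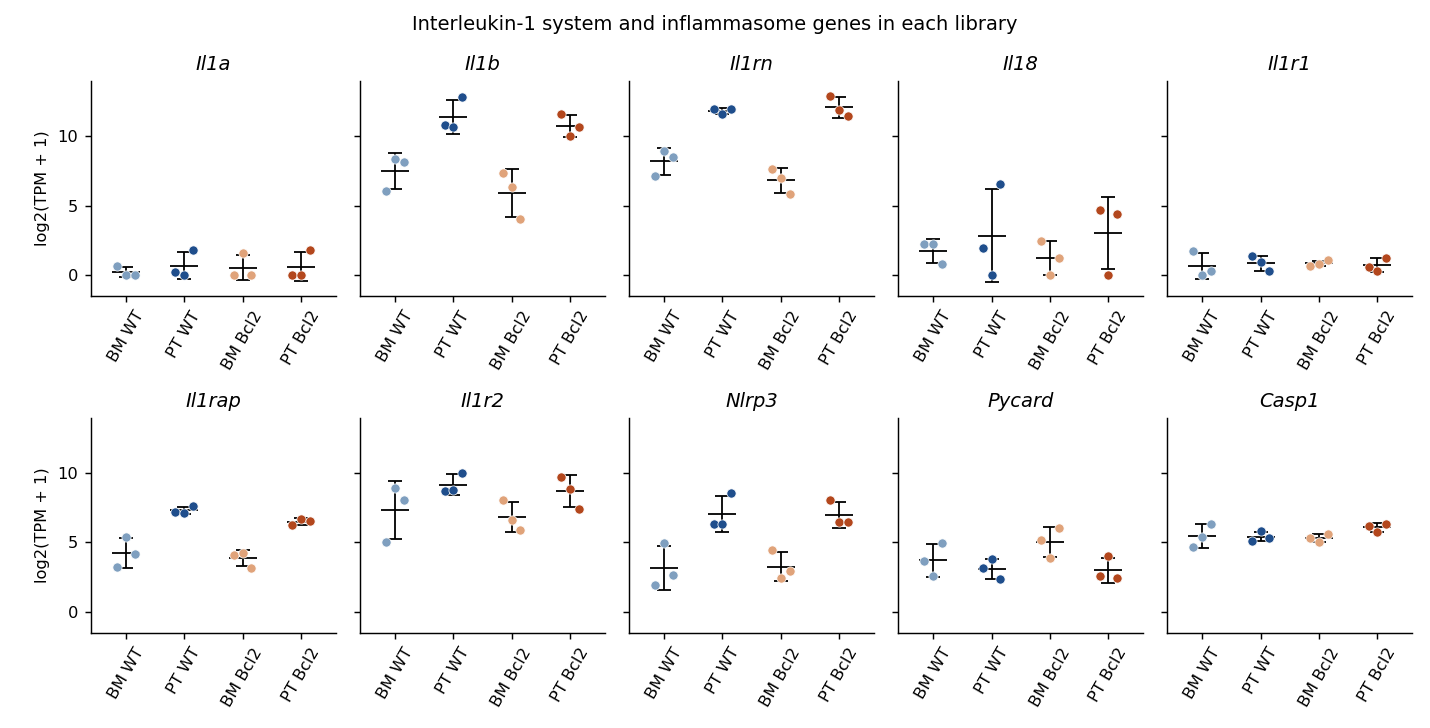
Level of each of the 10 members as log2(TPM + 1) in the 12 libraries, by group; each point is a library, the horizontal bar the mean and the whiskers 1 SD (n = 3). Points of PT and BM do not overlap for Il1b, Il1rn, Il1rap and Nlrp3, and Il1a and Il1r1 lie near 0 in all groups.

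Il1b (chr2:129364570-129371139) was at 64.3, 326 and 277 TPM in the BM WT libraries 4, 5 and 6 and at 1783, 1611 and 7334 TPM in the PT WT libraries 10, 11 and 12. In Bcl2 it was at 161, 82.7 and 15.1 TPM in the BM libraries 1, 2 and 3 and at 3093, 1042 and 1614 TPM in the PT libraries 7, 8 and 9. Library 12 was the highest of all and library 3 the lowest. By level within a library, Il1b ranked between 11 and 36 of all genes in every PT library, and between 186 and 5998 in BM. The log2 fold change was 3.93 ± 0.86 (SE, adjusted p = 0.0248, limma) in WT and 4.85 ± 0.86 (adjusted p = 0.0026, limma) in Bcl2. The WT call rested on single libraries: it was lost without library 4, 6, 10 or 12, with an adjusted p of 0.104, 0.051, 0.0626 and 0.101, while the change stayed between 3.19 and 4.25. Mast cells also make IL-1β, and the mast cell marker sum was 69.7, 32.2 and 678 TPM in libraries 10, 11 and 12, beside 9.37 to 90.5 TPM in BM. Their part in the change was not tested, and without library 12 the WT change was 3.23 and not called. With no filter on low values the WT call was lost too (adjusted p = 0.0747, limma). In Bcl2 the change was 4.90 without library 9 and the call held without any 1 library.

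Il1rn (chr2:24336853-24351494), which encodes the IL-1 receptor antagonist, was at 137, 498 and 373 TPM in WT marrow and at 4002, 3084 and 4055 TPM in PT WT. It was at 195, 129 and 56.7 TPM in BM Bcl2 and at 7777, 3901 and 2819.8 TPM in PT Bcl2. It ranked between 13 and 17 of all genes in all 6 PT libraries. The log2 fold change was 3.64 ± 0.58 (SE) in WT with an adjusted p of 0.00511 and 5.28 ± 0.58 in Bcl2 with an adjusted p of 0.000198 (limma). Of the 4 members called, it was the one whose WT call held without any 1 library, with adjusted p-values up to 0.0298, and its level in PT WT was 3714 ± 546 TPM (SD, n = 3). Without library 9 it was still called in Bcl2 (adjusted p = 0.000708, limma). Library 12, the highest in Il1b, did not stand out in Il1rn.

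Il1a (chr2:129299610-129309972), the other agonist, lies 54597 bases from Il1b on the same strand. It was listed at 0 in 7 of the 12 libraries and reached 2.45 TPM at most, in library 9. Its log2 change was 0.44 in WT (95% interval -0.96 to 1.84) and 0.07 in Bcl2 (-1.33 to 1.47), or -0.53 without library 9. It entered the test because 3 libraries of 3 groups reached 1 TPM. Il18 (chr9:50554827-50581840), whose product caspase-1 also matures, was uneven between libraries of the same group. It was at 95.8 TPM in library 12 and at 24.4 and 20.4 TPM in the PT Bcl2 libraries 7 and 9, was listed at 0 in PT libraries 8 and 11, and was at 4.47 TPM or less in all 6 BM libraries. Its change was not called, and the interval ran from -2.08 to 4.27 in WT and from -1.36 to 4.98 in Bcl2. Without library 9 the Bcl2 value went from 1.81 to 1.12. Without library 12 the WT value turned from 1.10 to -0.78, so the direction in WT rested on the library with the mast cell markers. Il18 overlaps Bco2 and Tex12 on the opposite strand, and reads of overlapping genes may not be separated.

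Agonist and antagonist rose together, and their ratio did not move beyond its spread. Il1rn was above Il1b in 11 of 12 libraries, library 12 being the exception. The ratio of Il1b to Il1rn, taken as (TPM + 1) over (TPM + 1), was 0.472, 0.656 and 0.744 in BM WT and 0.446, 0.523 and 1.81 in PT WT. It was 0.823, 0.645 and 0.279 in BM Bcl2 and 0.398, 0.267 and 0.572 in PT Bcl2. All 4 groups overlapped in this ratio. The mean log2 ratio in PT less that in BM was -0.07, with p = 0.875 in an exact two-sided permutation test within genotype (400 arrangements). Within a genotype the smallest p is 0.1, and the exact p was 0.9 in WT and 0.4 in Bcl2. The added 1 is small beside the lowest level of either gene, 15.1 TPM.

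**Figure D2:**
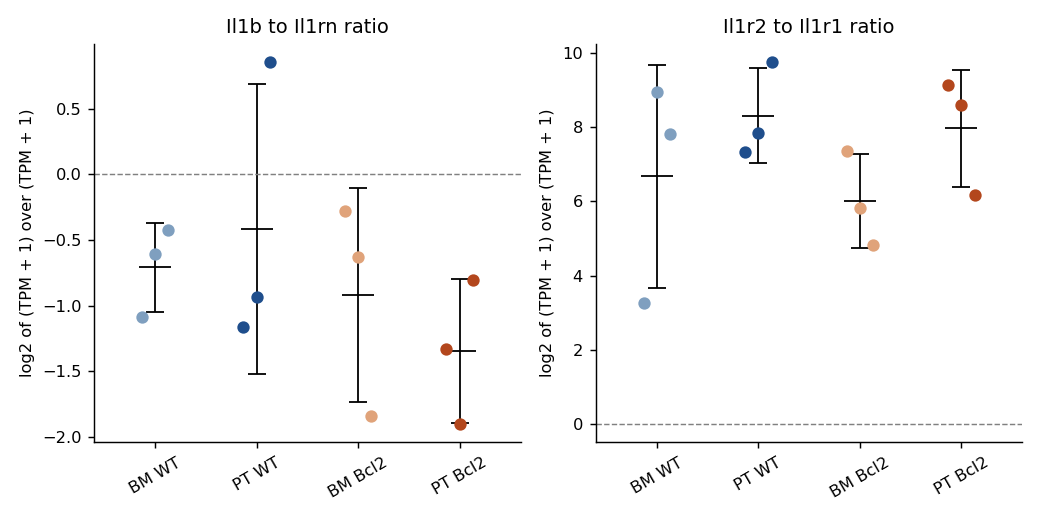
Ratios within each library on a log2 scale, Il1b to Il1rn (left) and Il1r2 to Il1r1 (right), by group; points are libraries, bars are means and whiskers 1 SD (n = 3), and the dashed line marks equal levels. The Il1b to Il1rn ratio is below the line in 11 of 12 libraries and the Il1r2 to Il1r1 ratio is above it in all 12.

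The receptor genes differed widely in level. Il1r1 (chr1:40225080-40317257), the signalling receptor, was at 2.33 TPM or less in every library and was listed at 0 in library 5. Il1r2 (chr1:40074079-40125231), the decoy, was at 31.1, 492 and 273 TPM in WT marrow and at 418, 434 and 1049 TPM in PT WT. It was at 261, 98.9 and 58.2 TPM in BM Bcl2 and at 858, 472 and 173 TPM in PT Bcl2. BM and PT overlapped in both genotypes, and only libraries 7 and 12 lay above all BM libraries. The log2 change was 1.82 ± 0.90 (SE) in WT with an adjusted p of 0.328 and 1.84 ± 0.90 in Bcl2 with an adjusted p of 0.151 (limma). In the mean of both it was 1.83 (95% interval 0.47 to 3.19) with an adjusted p of 0.057, which passed the threshold without library 1, 5 or 9, at 0.0364, 0.0274 and 0.036. Without library 9 the change in Bcl2 was 2.46 (adjusted p = 0.0894, limma). Centring each library on its median also gave a call in Bcl2, at 3.43 (adjusted p = 0.0433, limma), beside a median change of 0.57 over all genes.

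Within libraries, Il1r2 exceeded Il1r1 in all 12, by 9.64 to 864 times on the (TPM + 1) scale. The mean log2 ratio was 1.80 higher in PT with p = 0.115 in the exact two-sided permutation test, 1.64 in WT (exact p = 0.5) and 1.96 in Bcl2 (exact p = 0.2). Without library 5 the exact p was 0.045. With Il1r1 at 2.33 TPM or less, the added 1 is a large part of the denominator, so this ratio depends on the scaling of the libraries and mostly follows the level of Il1r2. Replacing Il1r1 by Il1rap turned the sign, to -1.03 with an exact p of 0.09.

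Il1rap (chr16:26581704-26730117), the accessory chain shared by the receptors for IL-1, IL-33 and IL-36, was at 8.42, 41.5 and 16.5 TPM in WT marrow and at 143, 142 and 196 TPM in PT WT. In Bcl2 it was at 16.4, 18.1 and 8.11 TPM in BM and at 75.1, 103 and 94.0 TPM in PT. The difference of Bcl2 from WT in PT was -0.81 (95% interval -2.09 to 0.47), which was not called, beside a median of -0.67 over all genes tested. The change from BM to PT was 3.06 ± 0.60 (SE) in WT with an adjusted p of 0.0143 and 2.65 ± 0.60 in Bcl2 with an adjusted p of 0.00835 (limma). The WT call was lost without library 4 or 10, at an adjusted p of 0.0648 and 0.0585. Without library 9 the change in Bcl2 was 2.62, still called. Gm20319 overlaps Il1rap on the opposite strand, and Gm16894 overlaps Il1r2 in the same way.

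Nlrp3 (chr11:59541568-59566956), the sensor whose transcript is limiting before priming, was at 2.73, 29.9 and 5.40 TPM in WT marrow and at 81.0, 78.1 and 384 TPM in PT WT. In Bcl2 it was at 20.6, 4.39 and 6.53 TPM in BM and at 266, 86.6 and 88.2 TPM in PT. One library in each PT group was far above the other 2, library 12 in WT and library 7 in Bcl2. The same 2 libraries were the highest of their groups in Il1b. The log2 fold change was 3.91 ± 0.88 (SE) in WT with an adjusted p of 0.0294 and 3.74 ± 0.88 in Bcl2 with an adjusted p of 0.0101 (limma). The WT call was lost without library 4, 6, 10, 11 or 12, with adjusted p-values of 0.113, 0.0932, 0.0675, 0.0534 and 0.116, and the change then ranged from 3.15 to 4.30. It was also lost with the WT groups fitted alone (adjusted p = 0.074) and with no filter (adjusted p = 0.0676, limma). In Bcl2 the call held without any 1 library, library 9 included (adjusted p = 0.0176).

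The other inflammasome members were not called. Casp1 (chr9:5298517-5307265), the protease, was at 24.5, 40.2 and 80.9 TPM in WT marrow and at 33.9, 55.6 and 39.3 TPM in PT WT. It was at 38.5, 31.2 and 47.9 TPM in BM Bcl2 and at 73.2, 52.6 and 79.4 TPM in PT Bcl2. The log2 change was -0.04 in WT (95% interval -1.21 to 1.13) and 0.79 in Bcl2 (-0.38 to 1.96), so a change of 2-fold in either direction was within the WT interval. Without library 9 the change in Bcl2 was 0.67. Centring each library on its median gave 2.38 in Bcl2 (adjusted p = 0.0282, limma), beside a median change of 0.57 over all genes. Pycard (chr7:127989708-127993867), the adaptor, was at 11.6, 4.83 and 29.4 TPM in WT marrow and at 7.73, 12.8 and 4.19 TPM in PT WT. It was at 34.7, 13.5 and 66.2 TPM in BM Bcl2 and at 4.85, 15.6 and 4.30 TPM in PT Bcl2. Its change was -0.61 in WT and -2.03 in Bcl2 (95% interval -3.76 to -0.30), with adjusted p-values of 0.763 and 0.0853 (limma). Without library 9 the Bcl2 value was -1.73 (adjusted p = 0.193, limma). With all libraries it stood beside a median of -1.02 over all genes, and shrank to -0.44 under median centring and to -0.89 with quantile normalization.

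**Figure D3:**
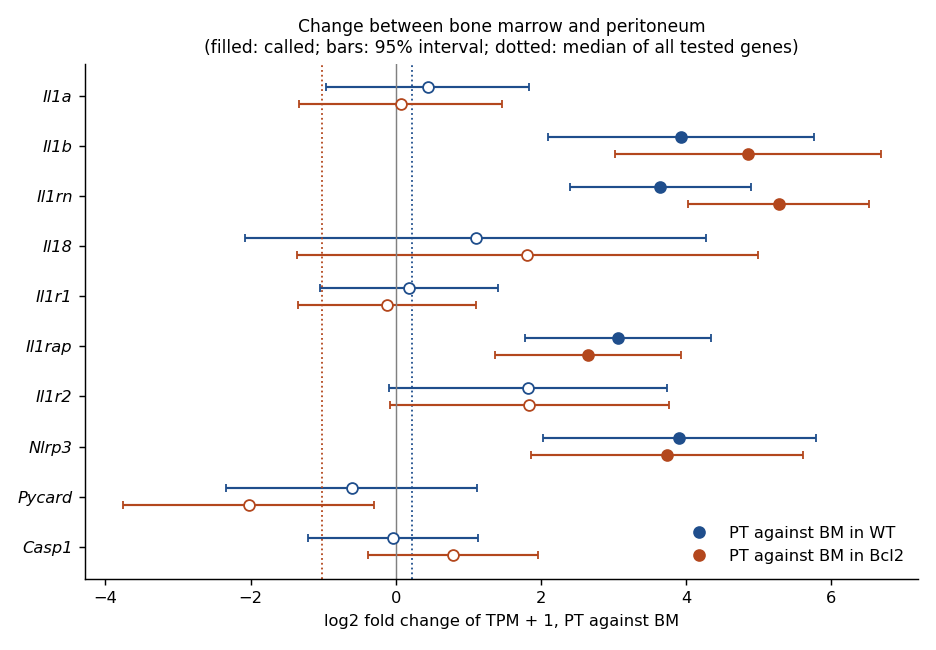
Log2 fold change of TPM + 1 from BM to PT for the 10 members in WT (blue) and in Bcl2 (orange-brown); bars are 95% intervals, filled points were called and dotted lines mark the median of all tested genes in each genotype. The 4 called members lie between 2.65 and 5.28 in both genotypes, and the intervals of Il1a, Il1r1, Il18, Il1r2 and Casp1 include 0.

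Scaling bears on all of these directions, because the median change of all genes was -1.02 in Bcl2 and 0.22 in WT. The median log2 level of the tested genes was 1.64 to 2.12 in PT Bcl2 against 3.07 to 3.68 in BM Bcl2. With libraries centred on their medians, or with quantile normalization, Il1b, Il1rn, Il1rap and Nlrp3 kept their direction in both genotypes. In WT, centring left Il1rn and Il1rap called and not Il1b or Nlrp3, at adjusted p-values of 0.0645 and 0.0513. In Bcl2, centring moved the median change of all genes from -1.02 to 0.57. Il1r1 in Bcl2 turned from -0.12 to 1.47 with centring, still not called (adjusted p = 0.0885, limma). Leaving out libraries 9 and 12 together, an alternative chosen after seeing the data, left 1 member called in WT (Il1rn) and 4 in Bcl2 and in the mean.

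Il1b, Il1rn and Il1r2 varied together within the marrow groups, a pattern noticed in the data. Libraries 2, 3 and 4 had the highest Elane of the 6 BM libraries, 1171 to 3557 TPM, and the 3 lowest levels of Il1b (15.1 to 82.7 TPM), Il1rn (56.7 to 137 TPM) and Il1r2 (31.1 to 98.9 TPM). Libraries 1, 5 and 6 had 159 to 484 TPM of Elane, a primary granule gene made early in neutrophil development, and 161 to 326 TPM of Il1b, 195 to 498 TPM of Il1rn and 261 to 492 TPM of Il1r2. Cxcr2, a receptor of late-stage neutrophils, was at 212 to 399 TPM in the former and 1493 to 1864 TPM in the latter. Il1r1, near the floor, went the other way, at 0.757 to 2.33 TPM in the former and 0 to 0.593 TPM in the latter. The rest of the members did not follow this split. Casp1 was at 24.5 to 47.9 TPM in the former and 38.5 to 80.9 TPM in the latter. Pycard was highest in library 3 and lowest in library 5, and Nlrp3 and Il1rap overlapped. Of the other immature neutrophil genes, Mpo, Prtn3 and Ctsg split the libraries as Elane did, while Camp, Ltf, Ngp and Chil3 did not. Library 3 had the lowest Camp, Ltf and Ngp of the 6 BM libraries, at 2844, 376 and 2630 TPM. The sum of the 8 immature neutrophil genes was 16555 TPM in library 3 and 28817 TPM in library 1. Both sets of libraries hold WT and Bcl2, and the part of maturity in any difference between genotypes in BM was not tested.

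Between genotypes no member was called. In BM, 0 of 10 were higher or lower in Bcl2 than in WT, where 0.0149% and 0.00743% of all genes were, and in PT 0 of 10 were, where 0% and 0.0297% were. At an unadjusted p under 0.05 and at least 2-fold, 0 members were higher and 1 lower in BM, against 6.61% and 0.751% of all genes. In PT 0 were, against 0.446% and 12.2%. Without library 9 no member was called in PT either. Over all genes tested, the median difference of Bcl2 from WT was 0.49 in BM and -0.67 in PT. For the difference of the BM to PT change between genotypes that median was -1.18. The member lower in BM was Il1rn, with a difference of Bcl2 from WT of -1.38 on the log2 scale (95% interval -2.63 to -0.13, adjusted p = 0.673, limma). Il1b differed by -1.59 in BM (-3.42 to 0.24) and Pycard by 1.32 (-0.41 to 3.05), each with overlapping libraries. The difference of the BM to PT change between genotypes was called for 0 of 10 members, against 0.0149% of all genes, and for 0 at an unadjusted p under 0.05, where 0.364% of all genes were above 0 and 16.6% below. It was 1.64 for Il1rn (95% interval -0.13 to 3.40, adjusted p = 0.322) and 0.92 for Il1b (-1.67 to 3.50), and it shares the marrow libraries with the comparison in BM.

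Among the other ligands of the IL-1 family, Il36g lay in the same direction as Il1b and Il1rn. Of 7 in the list, 5 passed the filter, and Il33 was listed at 0 in all 12 libraries. In WT 1 was called and in Bcl2 1, both higher, against 1.59% and 2.31% of all genes. The list median was 2.73 in WT and 3.07 in Bcl2. Il36a and Il1f10 passed the filter through PT libraries alone, and Il36rn, at 1.80 TPM or less in BM, mostly so. These genes could hardly come out lower, so the medians and the call of Il36rn do not show a shared direction. Il36g, the IL-36γ gene and the most abundant of the listed ligands, was at 41.4, 254 and 316 TPM in WT marrow and at 714, 655 and 522 TPM in PT WT. In Bcl2 it was at 150, 30.4 and 22.4 TPM in BM and at 1259.8, 785 and 532 TPM in PT. Its change was 4.07 in Bcl2 (adjusted p = 0.00388, limma) and 2.05 in WT, where it was not called (adjusted p = 0.189). Il36rn, which encodes the antagonist of the IL-36 receptor, was at 0, 0 and 0.753 TPM in WT marrow and at 23.2, 8.40 and 46.1 TPM in PT WT, a change of 4.19 (adjusted p = 0.0184, limma), and reached 5.31 TPM in PT Bcl2. Il36a, Il36b and Il1f10 were listed at 0 in all 6 BM libraries, and Il36a was at 3.23 to 15.3 TPM in PT WT. Il18bp, whose product binds IL-18, changed by -0.07 in WT and 0.79 in Bcl2 and was not called.

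These genes are neighbours. Il36b, Il36g, Il36a, Il36rn, Il1f10 and Il1rn follow each other within 198334 bases of chromosome 2 (GRCm38, chr2:24153161-24351494), a stretch looked at after the values were seen. Il1a and Il1b lie on the same chromosome at a distance, and of that pair Il1b alone was called. On chromosome 1, Il1r2, Il1r1, Il1rl2, Il1rl1, Il18r1 and Il18rap span 477627 bases, with Il1r2 and Il18rap abundant and Il1r1 and Il1rl2 at 9.38 TPM or less.

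**Figure D4:**
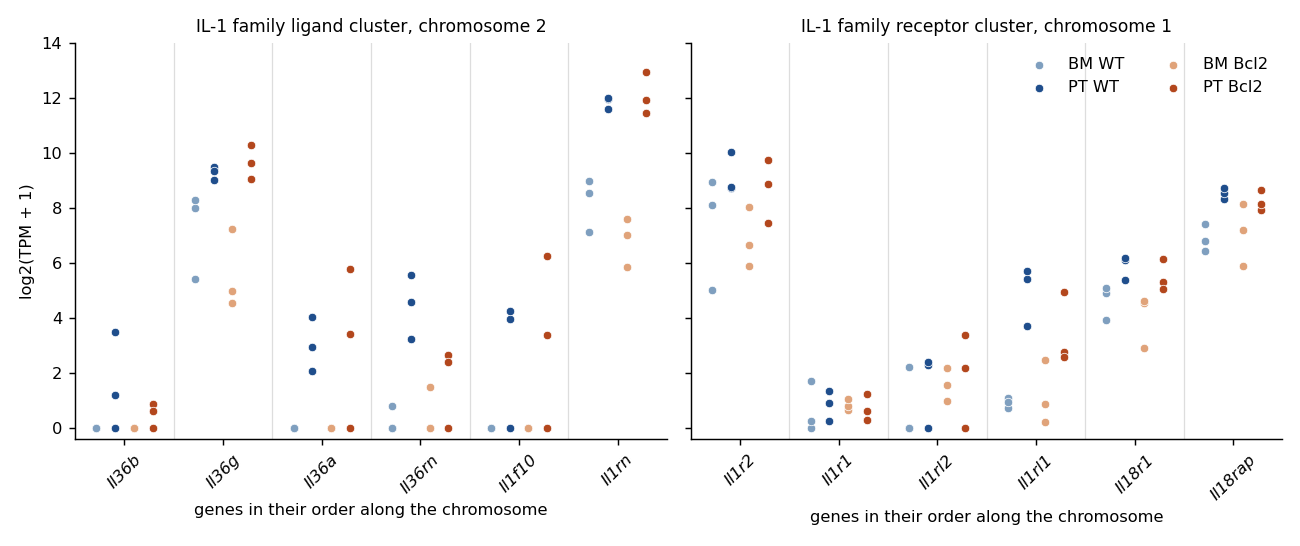
Level as log2(TPM + 1) of the IL-1 family genes in their order along the ligand cluster on chromosome 2 (left) and the receptor cluster on chromosome 1 (right); each point is a library, coloured by group. Il36b, Il36a and Il1f10 are at 0 in all 6 BM libraries, Il1rn is the most abundant gene of the ligand cluster, and Il1r1 lies near 0 between the abundant Il1r2 and Il18rap.

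Of the 7 other IL-1 family receptors, 5 were tested. In WT 1 was higher, against 1.59% of all genes, and in Bcl2 0 were, against 2.31%. At an unadjusted p under 0.05, 2 were higher in Bcl2, against 4.53% of all genes. The list median was 1.23 in WT and 1.15 in Bcl2. Il1rl1, which encodes ST2, the receptor of IL-33, was at 0.663, 1.16 and 0.933 TPM in WT marrow and at 41.8, 12.2 and 51.0 TPM in PT WT, a change of 4.01 (adjusted p = 0.0247, limma). In Bcl2 its lowest PT library, at 5.02 TPM, was above its highest BM library, at 4.63 TPM, and the change of 2.24 was not called (adjusted p = 0.0777, limma). In BM, Il1rl1 reached 1 TPM in libraries 1 and 5 alone. It passed the filter through PT and could hardly come out lower. Mast cells also carry ST2. In PT WT, Il1rl1 was highest in library 12 and lowest in library 11. The mast cell marker sum had the same order (678, 69.7 and 32.2 TPM in libraries 12, 10 and 11). Elsewhere the orders differed. In PT Bcl2 the sum was highest in library 8, at 51.9 TPM, where Il1rl1 was at 5.87 TPM, and Il1rl1 was highest in library 7. BM library 6 had a sum of 90.5 TPM, above PT libraries 10 and 11, with Il1rl1 at 0.933 TPM. The part of mast cells in the change was not tested. In the mean of both genotypes Il18rap and Il18r1, the 2 chains of the IL-18 receptor, were called too, at 1.39 and 1.37 with adjusted p-values of 0.0231 and 0.0435.

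Downstream of the receptors, 13 of 14 signalling genes were tested. In WT 1 was higher and 0 were lower, against 1.59% and 1.22% of all genes. At an unadjusted p under 0.05, 1 was lower in WT, against 6.32%. In Bcl2 1 was higher and 1 lower, against 2.31% and 19.1%. The list medians were 0.43 and -0.32. The one that rose in both was Irak2, a kinase of the late IL-1 receptor response, from 4.73, 7.34 and 26.4 TPM to 185, 148 and 203 TPM in WT. In Bcl2 it was at 10.8 TPM or more in BM and at 624, 103 and 113 TPM in PT, and its changes were 4.02 (adjusted p = 0.0106) and 3.68 (adjusted p = 0.00501, limma). Tab1, a partner of the kinase TAK1, fell in Bcl2 (adjusted p = 0.0147, limma), from 1.99, 3.82 and 4.03 TPM in BM to libraries all listed at 0 in PT. Tab1 reached 1 TPM in BM libraries alone and was at 0.662 TPM or less in PT. It passed the filter through BM and could hardly come out higher. Its levels are near the floor, and PT Bcl2 libraries had 9735 to 12138 genes above 0, against 12907 to 13463 in BM Bcl2. Myd88, an adaptor of IL-1 receptor signalling, was at 21.7 to 47.6 TPM in BM and 26.6 to 79.1 TPM in PT and was not called.

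Of 23 other inflammasome genes, 21 were tested. In WT 5 were higher and 1 lower, against 1.59% and 1.22% of all genes. In Bcl2 3 were higher and 2 lower, against 2.31% and 19.1%. The medians, 0.42 and -0.82, were near those of all genes. Txnip, whose product binds NLRP3, was at 106, 269 and 173 TPM in WT marrow and at 1233, 806 and 3096 TPM in PT WT, with changes of 3.09 in WT and 3.00 in Bcl2 (adjusted p = 0.011 and 0.00388, limma). Casp4, which encodes caspase-11, the sensor of cytosolic lipopolysaccharide, lies next to Casp1, and rose by 2.24 in WT and 1.72 in Bcl2 (adjusted p = 0.0288 and 0.0267), from 51.8 to 164 TPM in BM to 269 to 590 TPM in PT, and its Bcl2 call was lost without library 9 (adjusted p = 0.0602, limma). Ninj1, needed for the rupture of the membrane in lytic death, rose by 3.62 in WT and 3.25 in Bcl2 (adjusted p = 0.024 and 0.011), from at most 18.6 TPM in BM to at least 52.0 TPM in PT. Mefv, the gene of the sensor pyrin, rose in WT by 3.17 (adjusted p = 0.0171) and was at 1.37 in Bcl2 (adjusted p = 0.136).

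Aim2, the gene of a sensor of cytosolic DNA, was at 12.2, 19.5 and 5.77 TPM in WT marrow and at 117, 52.3 and 253 TPM in PT WT, a rise of 3.26 (adjusted p = 0.0266, limma). In Bcl2 it was at 47.0, 44.5 and 68.5 TPM in BM and 23.2, 83.3 and 18.3 TPM in PT, a value of -0.65 that was not called (adjusted p = 0.538). The difference between the genotypes was -3.90 with an adjusted p of 0.208. Serpinb1a, which encodes an inhibitor of neutrophil proteases, fell by 4.08 in WT and by 5.89 in Bcl2 (adjusted p = 0.00311 and 0.000118), from 151 to 403 TPM in BM, and was lowest at 2.94 TPM in PT. Naip2, a gene of a sensor of bacterial secretion needles, fell in Bcl2 by 2.69 (adjusted p = 0.0227, limma) and was at -1.10 in WT. In Bcl2, 19.1% of all genes were called lower. Gsdmd, the pore-forming target of these caspases, was at 24.4 to 62.6 TPM in BM and 21.3 to 91.5 TPM in PT and was not called.

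Neutrophil elastase, proteinase 3 and cathepsin G can also cut the IL-1β precursor, and their genes went the other way from Il1b. Of the 3, 2 were lower in WT, against 1.22% of all genes, and 3 in Bcl2, against 19.1%. The list medians were -4.28 and -6.30. Elane was at 159 to 3557 TPM in BM and 3.04 to 9.21 TPM in PT, a log2 change of -5.98 in WT and -7.91 in Bcl2 (adjusted p = 0.00144 and 0.000106, limma). Ctsg changed by -4.25 and by -6.30 (adjusted p = 0.0161 and 0.000722). It was at 19.2 to 368 TPM in BM and at 0.858 TPM or less in PT. Ctsg thus passed the filter through BM alone and could hardly come out higher. Prtn3 fell by 5.63 in Bcl2 (adjusted p = 0.00662) and was at -4.28 in WT (adjusted p = 0.0746). These 3 genes are also in the list of immature neutrophil genes above.

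Genes that IL-1 receptor signalling is known to induce, chosen as a list of 10, were higher where they changed. Of these, 8 were tested. In WT 2 were higher, against 1.59% of all genes, and in Bcl2 4 were, against 2.31%. None was lower in WT or in Bcl2, where 1.22% and 19.1% of all genes were. The list medians were 2.93 and 2.23. Cxcl2, a neutrophil chemoattractant, was at 12.8, 21.0 and 15.2 TPM in WT marrow and at 563, 276 and 2058 TPM in PT WT. Its changes were 5.33 in WT and 4.95 in Bcl2 (adjusted p = 0.00376 and 0.00184, limma). Tnfaip3, which encodes the NF-κB inhibitor A20, rose by 3.19 and by 4.22 (adjusted p = 0.0139 and 0.00118), from 4.24 to 8.25 TPM in BM to 43.6 to 230 TPM in PT. In Bcl2, Cxcl1 rose by 3.47 and Tnf by 1.69 (adjusted p = 0.0139 and 0.0458), and in WT neither was called (adjusted p = 0.058 and 0.319). Cxcl1 was listed at 0 in all 3 BM WT libraries and was at 2.90 to 38.6 TPM in PT WT. In BM Bcl2 it was above 0 in library 2 alone, at 2.50 TPM. It passed the filter through PT and could hardly come out lower, so its call and its part in the medians do not show a shared direction. Il6 was at 1.42 TPM or less and Csf3 was listed at 0 in all 12 libraries. Without library 9, the Bcl2 calls held for 13 of the 15 list genes called with it. Besides Casp4, the call of Tnf was lost (adjusted p = 0.0519, limma), and 1 was gained, the signalling kinase gene Map3k7, at -2.75 (adjusted p = 0.0361), named after its value was seen. Several other receptors induce the same genes, and libraries 7 and 12 were the highest of their groups in Cxcl2 and Tnfaip3 as in Il1b and Nlrp3.

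**Figure D5:**
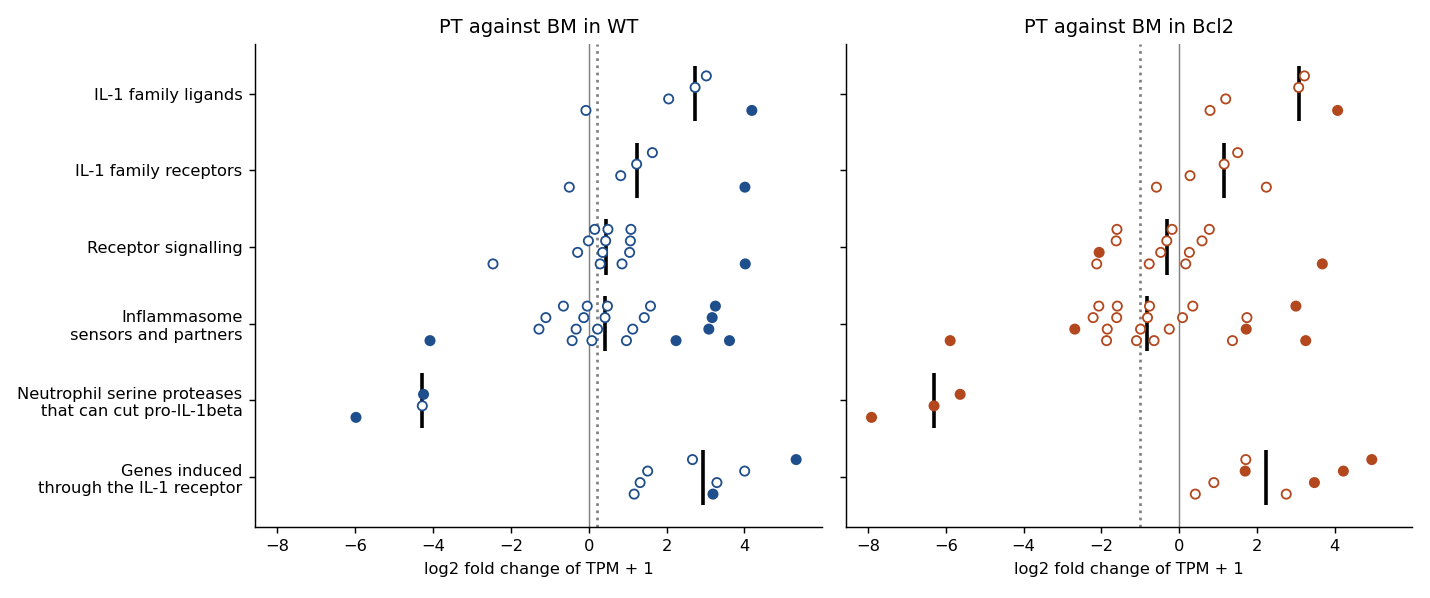
Log2 fold change of TPM + 1 from BM to PT in WT (left) and Bcl2 (right) for the tested genes of 6 lists around the members; each point is a gene, filled where it was called, the black bar is the list's median and the dotted line the median of all tested genes. The serine proteases lie at -4.25 or below in both, and signalling and inflammasome genes are spread on both sides of 0.

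The genes most alike in pattern to 3 members were found by Pearson's r of log2(TPM + 1) over the 12 libraries, among 8531 tested genes with a mean of at least 5 TPM. For Il1b these were Pnrc1 (r = 0.972), Clec7a (0.971) and Txnip (0.970). For Il1r2 they were Slc15a3 (0.955), Tlr2 (0.947) and Pdlim7 (0.938). For Casp1 they were Eif4ebp1 (0.807), Soat2 (0.804) and Cdc42se1 (0.779), a weaker likeness. The 12 points share 4 groups and their libraries, and these values are a description.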

How the data were processed

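RNA of sorted cells (CD11b+F4/80-GR1++ in the study's methods) was measured by RNA sequencing in 4 groups of 3 libraries. The deposited table holds log2(TPM + 1) values per gene, which the authors made with AltAnalyze, and the authors' group means of linear TPM were equal to the means of its columns. The version, the genome build and whether reads were counted by strand are not given in the sources used here. TPM keeps no read totals, so the depth of each library and counting intervals are unknown. Libraries were assigned to groups from a deposited header that pairs the columns with groups. A table of 1 library in kallisto layout (2 columns of estimated counts and TPM, with no sample named) and columns of the authors' own comparisons (fold changes, p-values, marker and lineage scores) were not used.

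The filter kept the 13456 of 28987 genes that reached 1 TPM in 3 or more libraries. Log2(TPM + 1), with a pseudocount of 1, was fitted with limma (version 3.58.1, R 4.3.3) on the 4 groups together, with 8 residual degrees of freedom before moderation, and p-values were adjusted by Benjamini-Hochberg over all genes tested. Fold changes on this scale understate the change of low genes. Ratios were tested by exact two-sided permutation in Python 3.11.15, and plots were drawn with matplotlib 3.10.9. Both tests were tested on simulated data with known changes. Gene positions are those of GENCODE M21 and promoters those of RefSeq, both on GRCm38, and are not tied to the build used by the authors.

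The members and lists were chosen with earlier results of these data known. Genes named are all 10 members, genes of the 6 lists called between BM and PT in either genotype, the 3 genes most alike to Il1b, Il1r2 and Casp1, and mouse Bcl2. Genes named beyond these (Il18bp, Il33, Il36a, Il36b, Il1f10, Il18r1, Il18rap, Il1rl2, Myd88, Gsdmd, Il6, Csf3, Cxcr2, Map3k7 and the cell type markers) were chosen after their values were seen. Alternatives were the pseudocount, the filter, the scaling, the threshold, fitting the compared groups alone, leaving out dominant genes and leaving out each library.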

Additional observations from a re-analysis of the deposited data

How the results depend on the processing

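Leaving out 1 library at a time left 1 to 4 of the 10 members called higher in PT in WT, and 4 in Bcl2. The WT count was 2 with no filter, 2 with libraries centred on their median and 1 without libraries 9 and 12 (chosen after seeing the data). In Bcl2, centring gave 6, with the median change of all genes at 0.57. Pycard alone made 1 member lower in Bcl2 at an adjusted p under 0.1 and at an unadjusted p under 0.05, and 1 lower in the mean of both genotypes at an unadjusted p under 0.05. Il1rn made 1 lower in Bcl2 than in WT in BM at an unadjusted p under 0.05. Il1b, Il1rn, Il1rap and Nlrp3 kept their direction from BM to PT under every alternative run.

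The directions from BM to PT that turned were all of members not called. Without libraries 9 and 12, Il1a was at -0.12 in WT, -0.53 in Bcl2 and -0.32 in the mean, Il18 at -0.78 in WT and Casp1 at 0.011 in WT. Il1r1 was at -0.033 with centring and -0.050 with quantile normalization in WT, and at 1.47, 1.21 and, with 50 dominant genes left out, 0.071 in Bcl2. With 1 library left out, Il1a ranged from -0.12 to 0.77 in WT, from -0.53 to 0.60 in Bcl2 and from -0.044 to 0.52 in the mean, and Il1r1 from -0.15 to 0.71, from -0.39 to 0.093 and from -0.14 to 0.30. Il18 in WT ranged from -0.78 to 2.52 and Casp1 in WT from -0.43 to 0.41. The difference between genotypes for Il1b ranged from -0.032 to 1.65. The Il1b to Il1rn log2 ratio ranged from -0.42 to 0.14, and the Il1r2 to Il1r1 ratio from 1.18 to 2.32, or -1.03 with Il1rap in place of Il1r1. The cause of these turns was not tested.

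No paired analysis was possible because the table's columns carry no replicate numbers, although both tissues came from each mouse. With 3 libraries a group, unknown depth and 6 h as the single time, small changes of low genes such as Il1a and Il1r1 were not detectable, and a filter of 6 libraries dropped both.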
